A study of Rattus norvegicus with 6 samples.

Results

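Genes known from the reticular stroma of bone marrow were followed in rat alveolar tissue, taken from the jaw around the teeth, by bulk RNA sequencing. They are Cxcl12, Vcam1, Kitlg, Lepr, Il7, Foxc1, Ebf3 and Angpt1, 8 of the 37203 gene symbols in the count table. The set was chosen by the measured counts of these same libraries, in which Cxcl12 and Vcam1 stood higher in case, so the case minus control values of all 8 genes are given here as a description, with no test. Teeth had been moved orthodontically with or without corticision, a surgical cut through the cortical bone beside the tooth. The 6 libraries are titled case (numbers 5, 6 and 9) and control (numbers 5, 6 and 10), 3 in each group. The case libraries are marked in the source field as tooth movement without corticision and the control libraries as tooth movement with it, which is the opposite of what the titles would usually mean. Groups are named by title below, and every difference is case minus control. Both groups thus had tooth movement, and no library of an unmoved tooth was analysed here. The sources used here give no strain, sex, age or time of sampling, and do not say whether a library is 1 animal or a pool. Nor do the labels state that replicates were separate animals, so a p-value reflects only how far these libraries spread, and that spread may be technical.

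Reticular stromal cells of the marrow, also called CXCL12-abundant reticular cells, surround the sinusoids and hold blood-forming cells in place. Their chemokine CXCL12 retains cells that carry the receptor CXCR4, their adhesion molecule VCAM1 binds the integrin VLA-4, and their stem cell factor (Kitlg) and interleukin 7 (Il7) sustain stem cells and B cell precursors. FOXC1 and EBF3 are transcription factors that maintain this cell type, and the leptin receptor (Lepr) is its common marker in adult bone. None of these genes belongs to reticular cells alone: VCAM1 is also made by activated endothelium and by macrophages, and CXCL12 by endothelium and osteoblasts. In bulk tissue, fewer cells of a type and less RNA per cell cannot be told apart.

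The promoters of Cxcl12 and Vcam1, the genes that gave the set its name, differ in letter composition. RefSeq's table for the rat assembly GRCr8 held a promoter for 6 of the 8 members: Cxcl12, Vcam1, Kitlg, Lepr, Foxc1 and Ebf3. The 250 bases before the annotated start are shown for Cxcl12 (chr4:152060531-152060780, plus strand) and for Vcam1 (chr2:206742784-206743033, minus strand), each 5′ to 3′, with matches to the searched motifs in capitals. The assembly behind the counts is not stated, so these positions belong to GRCr8 only.
Cxcl12: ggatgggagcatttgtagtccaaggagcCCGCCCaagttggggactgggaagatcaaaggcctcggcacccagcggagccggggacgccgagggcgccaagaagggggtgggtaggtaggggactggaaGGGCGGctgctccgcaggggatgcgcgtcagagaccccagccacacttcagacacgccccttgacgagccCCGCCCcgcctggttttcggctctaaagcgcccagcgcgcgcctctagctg
Vcam1: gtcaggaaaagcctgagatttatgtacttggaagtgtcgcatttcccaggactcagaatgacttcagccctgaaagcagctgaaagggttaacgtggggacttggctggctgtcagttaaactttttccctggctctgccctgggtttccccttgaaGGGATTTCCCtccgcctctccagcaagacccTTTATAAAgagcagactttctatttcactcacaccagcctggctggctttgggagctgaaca
The motifs searched, on both strands, were the NF-kappaB consensus, the EBF consensus, the forkhead site GTAAACA, the TATA box TATAAA and the GC box GGGCGG. In the Cxcl12 stretch the capitals mark 3 GC boxes, whose first bases lie 222, 121 and 51 bases before the start, and its GC content is 67.6%. In the Vcam1 stretch they mark 1 NF-kappaB consensus at 93 bases and 2 overlapping TATA boxes, 1 on each strand, at 62 and 60 bases before the start, and its GC content is 50.4%. Among 33469 promoter windows of the same length the median GC content was 51.2%, and 30.5% held a GC box, 12.9% a TATA box and 3.54% the NF-kappaB consensus. The EBF letters occurred in 0.738% of windows and the forkhead letters in 3.21%, and in 0 of the 6 member windows. Kitlg had 3 GC boxes and a TATA box, Ebf3 2 GC boxes, Foxc1 1 GC box and Lepr 0 matches. These matches are descriptions of the letters, not sites of binding.

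Library totals ranged from 10886303 to 14433740 counts, and levels are given in CPM, counts divided by the library size after TMM adjustment (trimmed mean of M-values) and set to a common scale. All 8 members passed the filter on low counts that left 16066 genes for testing. A principal component with 42.3% of the variance separated the libraries numbered 5, 1 of each group, from the remaining 4. Keratin and other oral epithelium markers reached a summed 3676 CPM in control 5 and 10.7 to 36.7 CPM in the others. A listed 0 sets no bound on expression in this table, since Hprt1, a gene every cell uses, had 0 counts in case 5, control 5 and control 6. Bone genes, which the tissue label calls for, were abundant: Bglap, the osteoblast product osteocalcin, was at 2422 to 5976 CPM across the 6 libraries.

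Cxcl12 encodes the chemokine that gives the reticular cells their name. It was at 532, 1255 and 611 CPM in case 5, 6 and 9 and at 591, 349 and 489 CPM in control 5, 6 and 10. Case 6 stood apart from the other 5 libraries, case 5 lay below control 5, and the groups overlapped. The means were 799 ± 396 CPM in case and 476 ± 121 in control (SD, n = 3 libraries a group, as for every mean below). This is a log2 fold change of 0.75 (SE 0.37). Without case 6 the log2 fold change was 0.26, and without both libraries numbered 5 it was 1.20. The counts behind these levels ran from 4436 to 18859 a library, so counting error was small beside the gap between libraries.

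Vcam1 encodes the vascular cell adhesion molecule, an immunoglobulin-type protein of the cell surface. It was at 127, 189 and 153 CPM in case 5, 6 and 9 and at 63.4, 90.0 and 93.3 CPM in control 5, 6 and 10. Every case library lay above every control library, and case 6 was again the highest. The means were 156 ± 31.2 and 82.2 ± 16.4 CPM, a log2 fold change of 0.92 (SE 0.21), or 1.90-fold. With any 1 library left out the value lay between 0.76 (without case 6) and 1.08 (without case 5). Thus Vcam1 was higher in each case library, while the higher Cxcl12 mean came largely from 1 library.

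**Figure D1:**
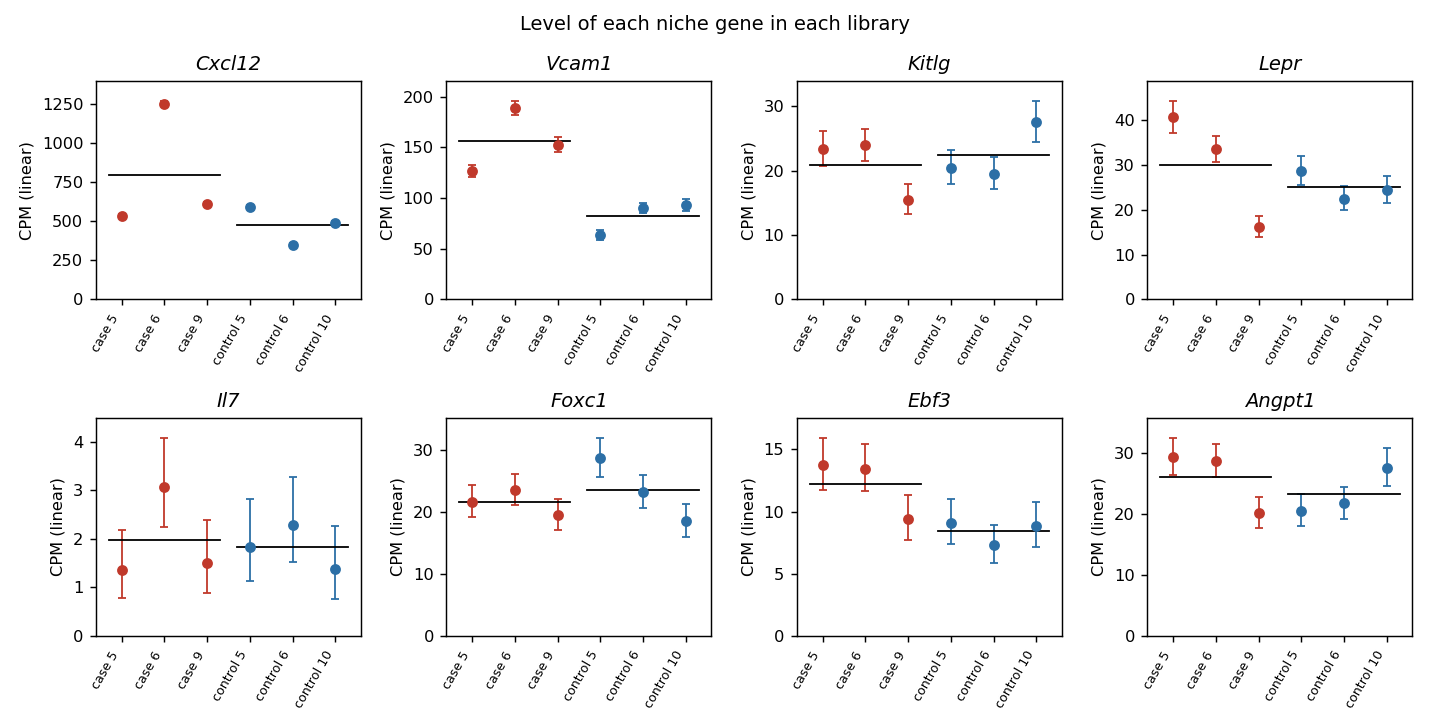
Level of each of the 8 niche genes in CPM (linear axis from 0) in the 3 case (red) and 3 control (blue) libraries; bars are exact 95% Poisson intervals, which cover counting error only, and horizontal lines are group means. Vcam1 and Ebf3 have separate groups, and Cxcl12 stands at 1255 CPM in case 6 against 349 to 611 CPM elsewhere.

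The other ligands overlapped between the groups. Kitlg, which encodes stem cell factor, was at 23.3, 23.9 and 15.5 CPM in case 5, 6 and 9 and at 20.4, 19.5 and 27.5 CPM in control 5, 6 and 10. Its lowest library was case 9 and its highest control 10, and the log2 fold change was -0.10 (SE 0.23), or 0.07 without case 9 and 0.10 without control 10. Angpt1, which encodes the TIE2 ligand angiopoietin 1, was at 29.3, 28.6 and 20.1 CPM in case and at 20.5, 21.7 and 27.5 CPM in control, in the same order of libraries. Case 9 was again the lowest library, and the log2 fold change was 0.16 (SE 0.21). Il7, the growth factor of B and T cell precursors, was at 1.36, 3.06 and 1.51 CPM in case and at 1.84, 2.28 and 1.37 CPM in control. It rested on 15 to 46 counts a library, and the exact 95% Poisson interval of case 6 (2.24 to 4.08 CPM) overlapped those of control 5 (1.14 to 2.81 CPM) and control 6 (1.53 to 3.28 CPM). Its log2 fold change of 0.12 (SE 0.45) became -0.35 without case 6 and -0.02 without control 10.

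Lepr, the receptor that marks adult reticular cells, varied most within case. It was at 40.6, 33.5 and 16.2 CPM in case 5, 6 and 9 and at 28.6, 22.4 and 24.3 CPM in control 5, 6 and 10. Its highest and its lowest library were thus both case libraries, and the log2 fold change was 0.26 (SE 0.32). The value was 0.56 without case 9 and 0.01 without case 5. Case 9, low for Lepr, Kitlg and Angpt1, was not low for Cxcl12 or Vcam1.

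The transcription factors differed from each other. Ebf3 was at 13.7, 13.4 and 9.41 CPM in case 5, 6 and 9 and at 9.10, 7.32 and 8.87 CPM in control 5, 6 and 10, a log2 fold change of 0.53 (SE 0.24). The groups did not overlap, but the exact 95% Poisson interval of case 9, 7.75 to 11.3 CPM, held the level of control 5, and scaled by library totals the groups overlapped. Foxc1 was at 21.7, 23.6 and 19.5 CPM in case and at 28.8, 23.3 and 18.6 CPM in control, with both ends of its range in control and a log2 fold change of -0.12 (SE 0.20), or 0.05 without control 5. Foxc1 varied least of the 8 genes, with a standard deviation of log2 CPM over the 6 libraries of 0.22 against 0.61 for Cxcl12 and 0.57 for Vcam1.

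**Figure D2:**
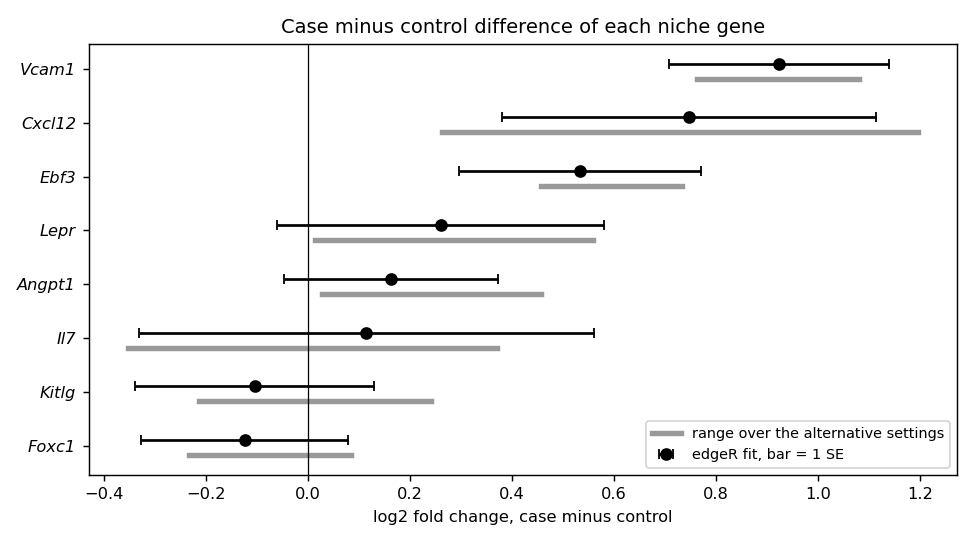
Log2 fold change, case minus control, of each niche gene (horizontal axis): points are the edgeR fit with bars of 1 SE, and grey bars span the fit and its alternative settings, leave-one-out fits included. The grey bars of Il7, Kitlg and Foxc1 cross 0, and those of the other genes stay above it, for Lepr and Angpt1 narrowly.

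Across the set, 6 of 8 members had a higher fitted level in case, where 46.3% of the 16066 tested genes did. Separate groups with case higher were seen for 2 of 8, Vcam1 and Ebf3, against 4.05% of all tested genes. Separate groups with case lower were seen for 0 of 8, against 4.42%, so that in either direction the members had 2 of 8 and all genes 8.47%. Nothing is read from these shares, since the case minus control contrast chose the set. Cxcl12 also had separate groups without case 5, without control 5 and without both. Such groups with case higher were then seen in 14.4%, 11% and 24.1% of the genes tested there. The edgeR quasi-likelihood test called 0% of all genes (0 of 16066) at a Benjamini-Hochberg adjusted p under 0.05. Before adjustment, 666 genes or 4.15% had a p under 0.05. limma-voom also called 0 genes and DESeq2 called 21, of which 0 were members.

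The receptors and partners of these factors were taken from a list of 14 genes, all in the table, of which 13 could be tested and 0 passed. This list and those below were chosen with earlier results of these data known, so their shares of separate groups are descriptions. Cxcr4, the receptor of CXCL12, was at 122, 129 and 125 CPM in case 5, 6 and 9 and at 86.5, 114 and 86.6 CPM in control 5, 6 and 10. Its groups were separate, control 6 lying nearest to case, with a log2 fold change of 0.38 (SE 0.16) and an edgeR Benjamini-Hochberg adjusted p of 0.999. Ackr3, the CXCL12 scavenger receptor, is listed under its older symbol Cxcr7 and lay at 130 to 185 CPM with overlapping groups and a log2 fold change of -0.04 that was 0.01 when scaled by library totals. Dpp4, a protease that inactivates CXCL12, was at 40.6 CPM in case 5 and 10.4 to 23.7 CPM in the other 5 libraries (0.11), and at -0.74 on the log2 scale without case 5.

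Itgb7 encodes an integrin beta chain that forms a VCAM1 receptor with the alpha 4 chain. It was at 101, 146 and 165 CPM in case 5, 6 and 9 and at 68.9, 93.3 and 84.5 CPM in control 5, 6 and 10, with separate groups. Its log2 fold change was 0.74 (SE 0.22), with an unadjusted p of 0.0100 and an edgeR Benjamini-Hochberg adjusted p of 0.999. Its partner Itga4, the alpha 4 chain, overlapped at 25.3, 12.3 and 10.9 CPM in case and 20.8, 9.45 and 6.67 CPM in control, where both libraries numbered 5 were the highest of their group (log2 fold change 0.39). That value was -0.05 without case 5 and 1.01 without control 5. Itgb1, the beta chain of VLA-4, lay at 287 to 411 CPM (-0.13, or 0.03 without control 10 and 0.07 with the title number as a replicate block). Adam17, a protease that sheds VCAM1, lay at 64.8 to 81.9 CPM (0.04, or -0.04 without case 5).

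Kit, the receptor of stem cell factor, was at 17.1, 29.0 and 16.6 CPM in case 5, 6 and 9 and at 17.9, 13.9 and 16.2 CPM in control 5, 6 and 10. Case 6 alone stood above the rest, as for Cxcl12, and the log2 fold change was 0.38 (SE 0.26), or 0.07 without case 6. Mast cells carry KIT too, and the mast cell list summed to 113 CPM in case 6, 50.4 and 78.3 CPM in case 5 and 9 and 38.4 to 47.6 CPM in control. All 7 of its tested members had positive fold changes (median 0.90), beside 46.3% of all tested genes. Separate groups with case higher were seen in 4 of 7, beside 4.05% of all tested genes, and 0 were called by edgeR. DESeq2 called 1 of them, Tpsab1, a mast cell tryptase. The part of mast cells in the Kit value was not tested.

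The interleukin 7 receptor genes Il7r (7.22 to 14.4 CPM, log2 fold change -0.01, or 0.05 when scaled by library totals) and Il2rg (36.1 to 61.4 CPM, 0.28) overlapped between the groups. Of the angiopoietin system, the receptors Tek (41.0 to 72.6 CPM, -0.29) and Tie1 (134 to 180 CPM, -0.11) and the antagonist Angpt2 (26.0 to 53.0 CPM, -0.27) had negative fold changes with overlapping groups. With the replicate block Angpt2 was at 0.05 and Tek at -0.0041 on the log2 scale. Lep, which encodes leptin, was too low to test, with 0 to 5 counts a library. Over the list, 7 of 13 tested genes had positive fold changes with a median of 0.04 (-0.05 without case 5), beside -0.02 over all tested genes. Separate groups were seen in 2 of 13, Cxcr4 and Itgb7, both with case higher, beside 4.05% of all tested genes with case higher.

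Of 20 other genes of reticular stroma, all tested, 6 had positive and 14 negative fold changes, with a median of -0.21, and 0 passed. With the replicate block 9 were positive and 11 negative, with a median of -0.04, and of all tested genes 46.3% were positive. Thy1, a surface glycoprotein of mesenchymal cells, was at 164, 116 and 110 CPM in case 5, 6 and 9 and at 165, 196 and 227 CPM in control 5, 6 and 10. Its groups were separate, though case 5 and control 5 lay next to each other, with a log2 fold change of -0.59 (SE 0.21) and an edgeR Benjamini-Hochberg adjusted p of 0.999. Pdgfrb, the platelet-derived growth factor receptor of perivascular cells, was at 261, 238 and 202 CPM in case and at 313, 277 and 311 CPM in control, a log2 fold change of -0.36 (SE 0.16) with the same adjusted p. Mcam, the perivascular marker CD146, overlapped at 73.4 to 91.3 CPM in case and 86.1 to 133 CPM in control. Adipoq, which encodes the fat cell hormone adiponectin and is also made by reticular cells, was at 19.7, 76.5 and 6.81 CPM in case and at 3.33, 14.6 and 22.3 CPM in control. Its highest library was case 6, as for Cxcl12, Vcam1, Kit and Il7.

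Other secreted or surface factors of the marrow niche mostly had lower fitted levels in case. Of 18 listed genes 16 could be tested, of which 4 had positive and 12 negative fold changes with a median of -0.36. Separate groups were seen in 6 of 16, all with case lower, beside 4.42% of all tested genes with case lower, and 0 were called by edgeR. Nothing is read from that share, since the list was chosen with earlier results of these data known. Il6, an inflammatory cytokine, was at 0.320, 0.333 and 0.168 CPM in case 5, 6 and 9 and at 1.58, 2.99 and 4.39 CPM in control 5, 6 and 10. Its log2 fold change of -3.38 (SE 0.56) rested on 2 to 5 counts a library in case, had an edgeR Benjamini-Hochberg adjusted p of 0.999, and was called by DESeq2. Csf1, the macrophage growth factor, was at 65.6, 90.2 and 83.9 CPM in case and at 132, 108 and 144 CPM in control (log2 fold change -0.68, SE 0.18). Lif, an interleukin 6 family cytokine, was at 2.96, 2.59 and 3.45 CPM in case and at 7.18, 4.49 and 5.67 CPM in control (-0.94, SE 0.30). Thpo, which encodes thrombopoietin, was listed at 0 in all 6 libraries.

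Vcam1 is a known target of NF-kappaB in endothelium, downstream of tumor necrosis factor and interleukin 1. Of 12 listed inputs 11 could be tested, with 6 positive and 5 negative fold changes, a median of 0.14 and 0 calls. That median was -0.03 without case 6 and -0.20 without case 9. Il1r1, the interleukin 1 receptor, was at 42.4, 34.8 and 42.1 CPM in case 5, 6 and 9 and at 50.5, 45.3 and 87.6 CPM in control 5, 6 and 10, with separate groups and case lower. Its log2 fold change of -0.62 became -0.23 without control 10. Irf2, an interferon regulatory factor, was at 54.6, 48.0 and 46.1 CPM in case and at 45.9, 40.1 and 29.2 CPM in control (0.37, SE 0.19), its groups separate with case 9 and control 5 next to each other. Tnfaip3, an NF-kappaB feedback inhibitor, lay at 32.6 to 36.7 CPM in case and at 34.0 to 53.2 CPM in control. Nfkb1, a subunit of NF-kappaB itself, was at 146, 141 and 139 CPM in case and at 119, 136 and 124 CPM in control, with separate groups and case higher (0.17, SE 0.13), and Rela, another subunit, overlapped (0.19, SE 0.14). Nfkb1 and Rela were named after their values were seen, and Tnf was too low to test. Of the 11 genes, 2 had separate groups with case higher and 1 with case lower, beside 4.05% and 4.42% of all tested genes.

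Among 11 other adhesion molecules, 4 had positive and 7 negative fold changes, with a median of -0.13 and 0 calls. Selplg, the selectin ligand of leukocytes, was at 80.6, 100 and 116 CPM in case 5, 6 and 9 and at 65.6, 76.8 and 45.4 CPM in control 5, 6 and 10, with separate groups and a log2 fold change of 0.66 (SE 0.23). F11r, a junctional adhesion molecule, overlapped at 30.7 to 34.9 CPM in case and 33.5 to 43.5 CPM in control. Negative fold changes were found for Icam1 (-0.35, SE 0.26) and Sele (-0.47, SE 0.36), which endothelium induces together with VCAM1, with overlapping groups. Icam1 and Sele were named after their values were seen.

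Of 12 genes for proteases and mobilisation of blood cells, 11 could be tested, with 6 positive and 5 negative fold changes and 0 calls. Their median of 0.12 was -0.05 without case 9 and also without control 5. Elane, the neutrophil elastase that can cleave CXCL12 and VCAM1, was at 225, 546 and 711 CPM in case 5, 6 and 9 and at 244, 407 and 247 CPM in control 5, 6 and 10. Serpina3n, a serine protease inhibitor, lay at 3.68 to 14.6 CPM in case and 6.30 to 29.6 CPM in control. Groups overlapped in both genes.

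**Figure D3:**
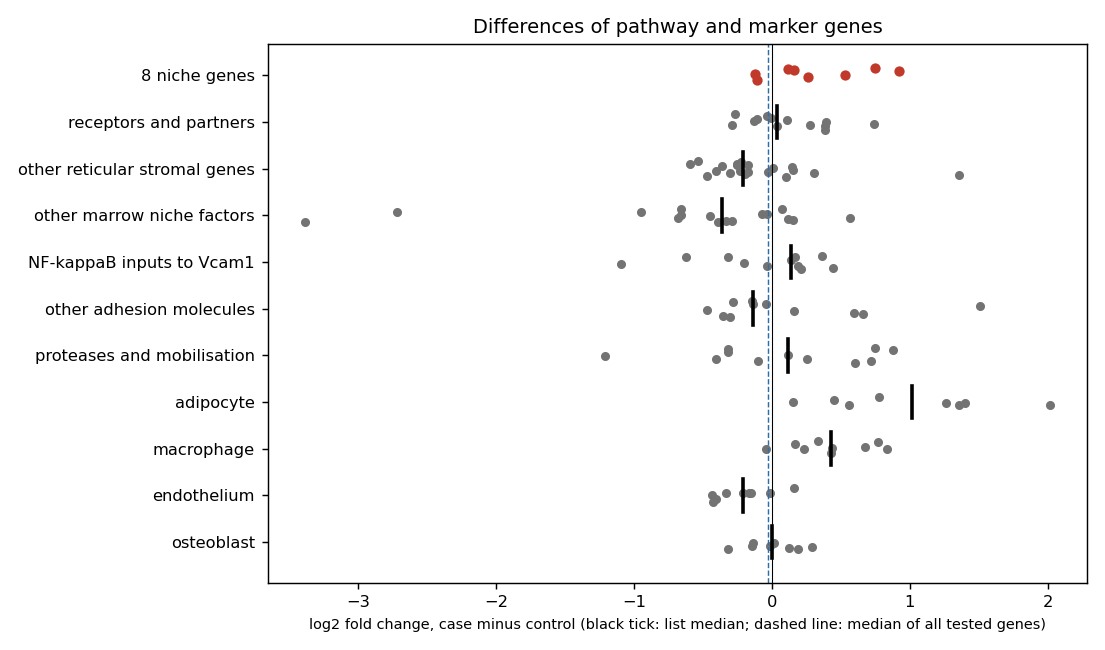
Log2 fold change, case minus control, of every tested gene (1 point each) in the niche set (red), 6 pathway lists and 4 marker lists (grey); black ticks are list medians and the dashed line is the median of all tested genes. Adipocyte markers lie above 0 with a median of 1.02, and the other reticular stromal genes have a median of -0.21.

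Likeness to Cxcl12 and to Vcam1 was measured over the 6 libraries, as the standard deviation of the log2 gap between gene and member divided by the member's own standard deviation, where a gene at a constant level would score 1. The comparison took in 10769 genes whose mean level was 5 CPM or more. Closest to Cxcl12 were Nnat (0.241), the imprinted gene of neuronatin, S1pr5 (0.331), a sphingosine 1-phosphate receptor, and Arrdc2 (0.423), of the arrestin domain family. Kit (0.444) and Cirbp (0.452), a cold-inducible RNA-binding protein, came next. All 5 were highest in case 6 and lowest in control 6, as Cxcl12 was. S1pr5, for instance, was at 4.39, 16.2 and 6.89 CPM in case 5, 6 and 9 and at 6.30, 3.62 and 4.84 CPM in control 5, 6 and 10.

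Closest to Vcam1 were Cfd (0.257), the complement factor adipsin, Phgdh (0.318), the first enzyme of serine synthesis, and Pik3ip1 (0.356), an inhibitor of phosphoinositide 3-kinase. Gpr182 (0.361), an endothelial receptor, and Itgad (0.362), the integrin alpha D chain of macrophages, came next. Cfd was at 130, 234 and 162 CPM in case 5, 6 and 9 and at 83.1, 104 and 120 CPM in control 5, 6 and 10. All 5 had separate groups with case higher, as the Vcam1 profile they were matched to has. Cxcl12 and Vcam1 were not close to each other: Vcam1 ranked 605 by likeness to Cxcl12 (0.819), and Cxcl12 ranked 1533 by likeness to Vcam1 (0.872). Ebf3 was the closest member to either, at rank 175 for Cxcl12 and 646 for Vcam1. With 6 libraries and so many genes, close profiles are to be found for most genes, and the ranks are descriptions.

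**Figure D4:**
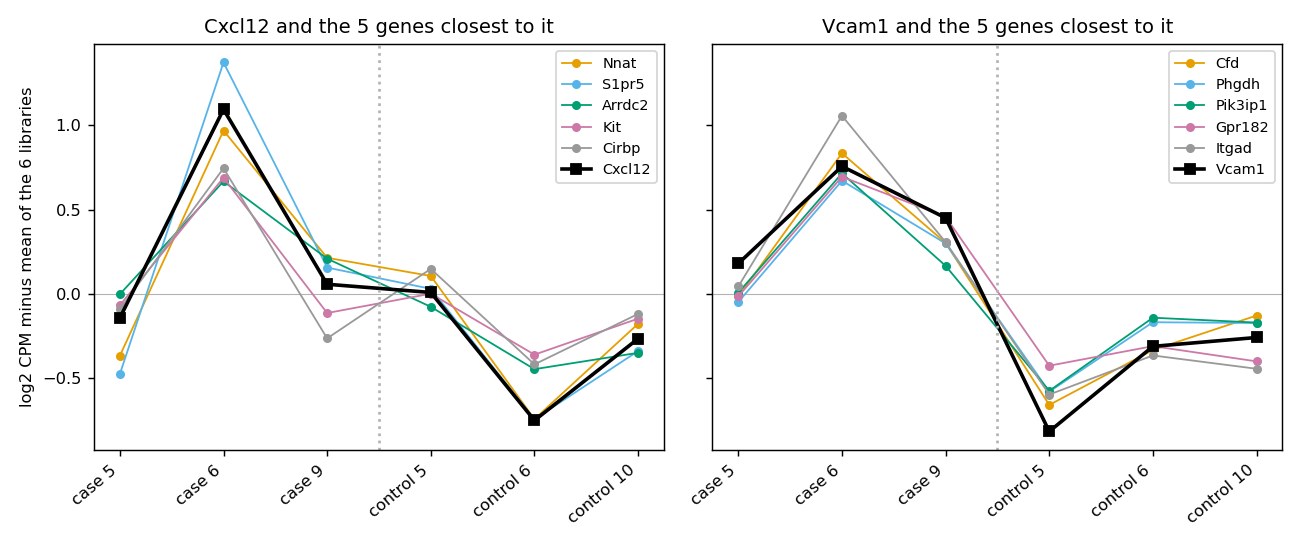
Log2 CPM minus the mean of the 6 libraries (vertical axis) for Cxcl12 (left, black) and Vcam1 (right, black) with the 5 genes closest to each (coloured); the dotted line parts case from control. The Cxcl12 group peaks in case 6, and the Vcam1 group lies higher in all 3 case libraries than in control.

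Markers of other cells that could hold these transcripts moved with them in part. The adipocyte list summed to 271, 658 and 280 CPM in case 5, 6 and 9 and to 180, 230 and 325 CPM in control 5, 6 and 10, with case 6 the highest as for Cxcl12. All 8 of its members had positive fold changes (median 1.02, 0 calls), but without case 6 only 5 did, with a median of 0.27. Plin1, the lipid droplet coat protein of fat cells, was at 9.51, 38.1 and 2.19 CPM in case and at 3.50, 3.15 and 5.67 CPM in control. The list shares Adipoq and Lpl with the reticular stromal list, and its Cfd is the gene closest to Vcam1. Cfd and Plin1 were both highest in case 6 but parted in case 9, the lowest library of Plin1. There Cfd made up 162 of the list's 280 CPM, while Adipoq was at 6.81 CPM. The part of fat cells in the Cxcl12 and Vcam1 values was not tested.

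Of 9 tested macrophage markers 8 had positive fold changes with a median of 0.43, and 0 were called. The list summed to 1233, 2096 and 1988 CPM in case 5, 6 and 9 and to 1188, 1684 and 1475 CPM in control 5, 6 and 10, with overlapping groups. Siglec1, the sialoadhesin of resident macrophages, was at 15.5, 21.2 and 29.8 CPM in case and at 16.7, 13.4 and 7.22 CPM in control. It had the largest fold change of the list (0.83, SE 0.36). Cd68, the 1 marker with a negative value (-0.04, SE 0.26), was at 198, 344 and 359 CPM in case and at 257, 334 and 335 CPM in control. Among endothelial markers 1 of 9 tested was positive and 8 were negative (median -0.21), and the list had a summed level of 444 to 567 CPM in case and 525 to 610 CPM in control. Pecam1, the endothelial junction protein, was lower in every case library (75.6 to 80.8 CPM) than in control (90.0 to 115 CPM). Erg, an endothelial transcription factor, was the gene with a positive value (0.16, SE 0.16), and the summed level of case 5 lay above that of control 5. Osteoblast markers summed to 84351 CPM in case 5, 43056 to 45201 CPM in the other case libraries and 49108 to 70913 CPM in control, with 4 of 8 positive (median 0.00, or -0.31 without case 5). The part of macrophages, endothelium and osteoblasts in the niche genes' values was not tested.

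**Figure D5:**
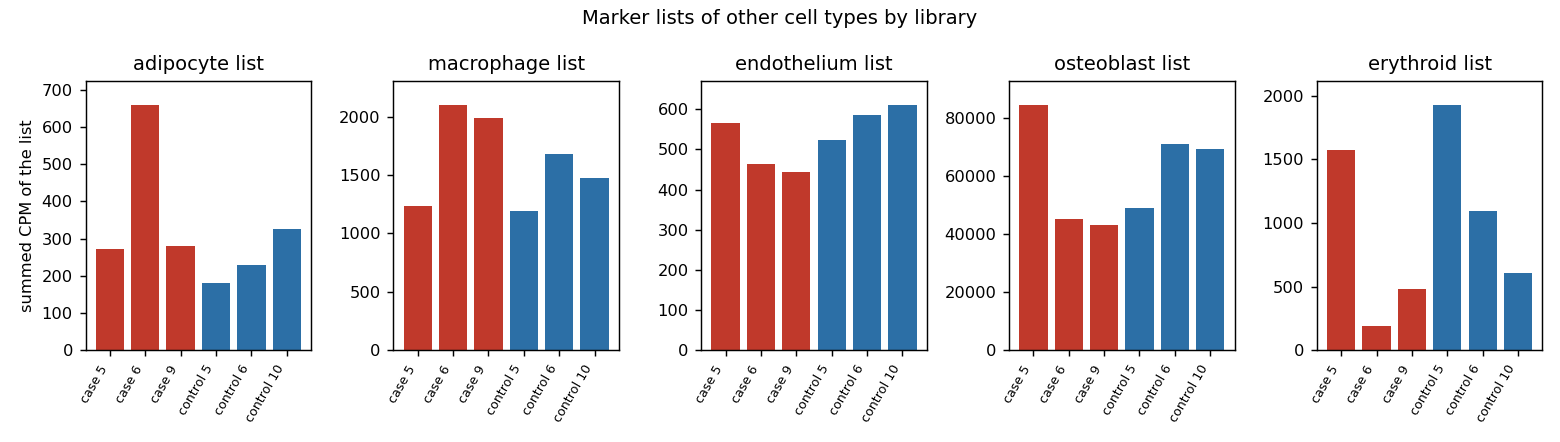
Summed CPM (linear axis from 0) of 5 marker lists in the 3 case (red) and 3 control (blue) libraries. The adipocyte sum is highest in case 6 (658 CPM), where the erythroid sum is lowest (191 CPM).

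The blood cells that such a niche supports also varied by library. B cell precursor markers summed to 336, 149 and 161 CPM in case 5, 6 and 9 and to 245, 208 and 83.9 CPM in control 5, 6 and 10, with 6 of 10 positive (median 0.17, 0 calls). Without case 5 only 3 of 10 were positive, with a median of -1.01, and without control 10 the median was -0.12. Case 6, where Il7 and Cxcl12 were highest, was listed at 0 for Igll1, the surrogate light chain, and for Rag1, the recombinase, while case 5 had 24.5 and 37.1 CPM. Stem and progenitor markers summed to 251 to 299 CPM in case and 209 to 278 CPM in control, with 4 of 7 positive (median 0.00). Most of that sum was Spn alone, at 164, 213 and 176 CPM in case and at 115, 176 and 130 CPM in control. The 3 negative genes included Cd34 (-0.65, SE 0.28) and Mecom (-0.62, SE 0.51), both with overlapping groups. Erythroid markers summed to 1569, 191 and 480 CPM in case and to 1922, 1096 and 604 CPM in control, with 0 of 8 positive (median -0.64, and 0.02 with 4 of 8 positive without control 5). Neutrophil markers summed to 9248 to 20872 CPM in case and 7213 to 20333 CPM in control, with 4 of 7 positive (median 0.10, or -0.22 without control 5). None of the members of these 4 lists passed the edgeR test, and their part in the niche genes' values was not tested.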

How the data were processed

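Per the labels' protocols, TRIzol was used to extract total RNA and an Ion Total RNA-Seq kit to prepare cDNA for single-end sequencing. Values are read counts for each gene symbol, deposited by the authors in 1 table of 6 libraries; they are whole numbers and look unnormalized. The aligner, counter, build, annotation and strand setting were not given in the sources used here, so reads of overlapping or near-identical genes may have been shared. Columns were matched to libraries by title.

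Counts were filtered with filterByExpr, scaled by TMM and compared in edgeR 4.0.16 (quasi-likelihood test, R 4.3.3) with the group as the only term, and p-values were adjusted by Benjamini-Hochberg over all 16066 tested genes. Standard errors were derived from the fold change and its F statistic. Log2 CPM used a prior count of 2. limma 3.58.1 (voom) and DESeq2 1.42.0 served as alternatives, beside other scalings and filters, libraries left out and the title number as a block. Libraries whose number the other group lacks added nothing to the group difference under that block. The script was tested on simulated counts.

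The members, the 6 pathway lists and the 14 marker lists were chosen with earlier results of these data known. Of 203 list entries 198 matched the table directly, 2 through older RefSeq symbols and 3 not at all. Named were all members, all receptors and partners, the 3 genes with the smallest p in each other pathway list, and the 5 genes closest to Cxcl12 and to Vcam1 (mean of at least 5 CPM, names LOC and RGD left out). Genes of the marker lists, and a few others said to be so, were named after their values were seen. Some genes that the rule names are not reported here.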

Additional observations from a re-analysis of the deposited data

How the results depend on the processing

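Alternatives were run for 57 results over 15 settings. The edgeR count of called genes, 0, stayed at 0 under other scalings and filters, in limma-voom, with the replicate block and without both libraries numbered 5. DESeq2 called 21 genes, and leaving out 1 library gave 0 to 2 calls, the 2 without control 5. Leaving out 1 library gave log2 differences of at least 0.26 for Cxcl12 (without case 6, which decided its size) and 0.76 to 1.08 for Vcam1. List medians kept their sign under the 3 other scalings. Among the other members the sign turned for Kitlg (0.24 with the replicate block), Il7 (-0.35 without case 6) and Foxc1 (0.09 without both libraries numbered 5). Of all 854 values under alternatives 830 stayed within a set margin. For a gene or list that was the standard deviation between libraries within groups, and for the count of called genes no change. With 3 libraries a group, leaving 1 out can hardly pass that deviation: Cxcl12 at 0.26 without case 6 counted as within it. The share of 830 is thus no measure of stability. The causes of the larger moves were not tested. The numbers 5 and 6 occur in both groups, but the labels do not say that they pair animals: deviations from the group means correlated across genes at 0.38 for number 5, 0.14 for number 6 and 0.10 for case 9 with control 10, whose numbers differ. With the replicate block the log2 differences were 0.85 for Cxcl12 and 1.03 for Vcam1. Case 9 and control 10 share no number, so this contrast and its 0 calls rest on numbers 5 and 6 alone. For Cxcl12 these differed in sign, with log2 case over control at -0.15 for number 5 and 1.84 for number 6. For Vcam1 the values were 0.996 and 1.07. A list of 3 tested tooth markers gave no value without both libraries numbered 5. At 15 to 46 counts a library, Il7 was limited by depth.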

Other observations

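Lists of neighbouring tissues gave further values. Ligament fibroblast markers had 1 of 8 positive fold changes (median -0.25), with summed levels of 2962 to 5087 CPM in case and 4223 to 6321 CPM in control. Smooth muscle and pericyte markers had 2 of 7 positive (median -0.49, and -0.07 without control 10), at 454 to 560 CPM in case and 535 to 773 CPM in control. Skeletal muscle markers had 1 of 8 positive (median -0.59, or 0.51 in limma-voom) and ranged from 9.63 CPM in control 5 to 1201 CPM in case 9. Oral epithelium markers had 0 of 6 positive (median -4.89, and 0.54 without control 5). Of the tooth-forming list 3 of 7 genes could be tested (median 1.64, or -4.50 without case 5), and its sum was 457 CPM in case 5, 81.0 CPM in control 5 and 0.640 to 7.79 CPM elsewhere. edgeR called 0 members of these lists.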
